A study of Homo sapiens with 2 samples.

Results

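The genes described here encode spliceosome subunits and RNA-binding splicing factors, and they were chosen by symbol. All genes were taken whose current symbol begins with SRSF, HNRNP, SNRP, SF3A, SF3B, U2AF, PRPF, or LSM followed by a number, and that had a value on at least 1 array. This gave 58 of 11057 named genes, and all 58 had a value on both arrays. RefSeq holds 87 protein-coding genes with these stems, and the other 29 were not analysed here. The CLK kinases were left out by the same rule. The samples were 293T cells, an established human embryonic kidney line that carries the SV40 large T antigen, on 2 dual-colour arrays. The array for 3 h set untreated 293T cells, given a time of 0 h and the agent none, in the Cy5 channel against 293T cells given 10 µM Y27632 for 3 h in the Cy3 channel. The array for 6 h had the same layout with cells given 10 µM Y27632 for 6 h. Y27632 inhibits the kinases ROCK1 and ROCK2. All cells were kept in the same serum-containing medium.

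Splicing removes introns from pre-mRNA in a ribonucleoprotein machine, the spliceosome, which is built anew on each intron. SR proteins (SRSF) and HNRNP proteins bind exons and introns and help or hinder the choice of splice sites. U2AF marks the end of the intron, the U1 and U2 particles with their SNRP and SF3 proteins pair with the splice site and the branch point, and PRPF proteins belong mostly to the later U4/U6.U5 particle and the catalytic core. LSM proteins form rings on U6 RNA or on mRNA that is to be degraded. Many SR and HNRNP genes are known to control their own mRNA through exons that send it to decay.

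The stretches before the transcription starts are shown for 6 members whose values are described below. SRSF5, PRPF8, SF3B1 and HNRNPH3 are members at or past 1.5-fold on an array, and SRSF3 and HNRNPC had the lowest values at 6 h. PRPF39 and LSM14A, which were also past 1.5-fold and were the highest members at 6 h, are not shown. Each run is the 250 bases that precede the RefSeq start in assembly GRCh38.p14, written 5′ to 3′ on the gene's strand. They lie at chr14:69766892-69767141 (plus strand, SRSF5), chr17:1684868-1685117 (minus, PRPF8), chr2:197435094-197435343 (minus, SF3B1), chr10:68331443-68331692 (plus, HNRNPH3), chr6:36594112-36594361 (plus, SRSF3) and chr14:21269443-21269692 (minus, HNRNPC). Capitals mark matches, on either strand, to the ETS core CCGGAAG, the AP-1 motif TGANTCA, the cAMP response element TGACGTCA, the box CCAAT, the TATA box with the letters TATAAA, or the CArG box of SRF.
SRSF5: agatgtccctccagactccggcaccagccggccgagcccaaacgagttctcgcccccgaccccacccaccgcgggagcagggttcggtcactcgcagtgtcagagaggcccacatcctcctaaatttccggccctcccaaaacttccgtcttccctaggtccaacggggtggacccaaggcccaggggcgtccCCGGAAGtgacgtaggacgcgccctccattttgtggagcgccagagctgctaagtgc
PRPF8: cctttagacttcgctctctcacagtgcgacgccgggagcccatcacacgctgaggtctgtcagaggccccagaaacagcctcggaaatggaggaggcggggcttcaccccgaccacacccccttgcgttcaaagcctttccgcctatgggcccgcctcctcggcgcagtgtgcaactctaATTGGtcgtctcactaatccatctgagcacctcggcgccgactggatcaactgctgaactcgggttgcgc
SF3B1: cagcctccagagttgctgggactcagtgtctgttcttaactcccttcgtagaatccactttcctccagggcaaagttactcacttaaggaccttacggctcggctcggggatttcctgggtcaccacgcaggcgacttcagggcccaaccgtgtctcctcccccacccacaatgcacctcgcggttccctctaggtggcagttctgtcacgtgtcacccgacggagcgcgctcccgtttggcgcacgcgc
HNRNPH3: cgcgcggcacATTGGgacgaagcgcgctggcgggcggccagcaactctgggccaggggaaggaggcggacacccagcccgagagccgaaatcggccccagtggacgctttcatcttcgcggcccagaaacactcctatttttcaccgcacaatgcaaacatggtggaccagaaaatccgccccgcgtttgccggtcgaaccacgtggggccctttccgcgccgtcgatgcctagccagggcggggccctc
SRSF3: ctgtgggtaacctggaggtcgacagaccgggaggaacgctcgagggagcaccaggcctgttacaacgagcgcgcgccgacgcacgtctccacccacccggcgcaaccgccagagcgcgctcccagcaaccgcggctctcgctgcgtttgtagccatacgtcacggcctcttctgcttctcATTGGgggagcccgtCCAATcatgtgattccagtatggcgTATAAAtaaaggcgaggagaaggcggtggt
HNRNPC: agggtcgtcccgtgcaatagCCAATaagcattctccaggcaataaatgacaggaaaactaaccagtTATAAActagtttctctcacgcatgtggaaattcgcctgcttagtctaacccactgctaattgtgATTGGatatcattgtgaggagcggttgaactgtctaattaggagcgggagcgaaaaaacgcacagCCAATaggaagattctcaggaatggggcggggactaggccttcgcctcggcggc
SRSF5 had 1 match, an ETS core 57 bases before the start. PRPF8 had 1 CCAAT match on the opposite strand, which began 70 bases before the start. In SRSF3 a TATAAA match began 30 bases before the start, with CCAAT matches at 55 and 70 bases. HNRNPC had 3 CCAAT matches and a TATAAA match 184 bases before the start. HNRNPH3 had 1 CCAAT match, and SF3B1 had no match in these letters. Over the 52 members with a RefSeq promoter, 19 held the ETS core (36.5%), against 1124 of 8872 measured genes (12.7%). CCAAT occurred in 23 members (44.2%) and 3102 of 8872 genes, TATAAA in 5 members (9.62%) and 8.3% of genes, and the AP-1 motif in 2 members (3.85%) and 4.87% of genes. No member held the cAMP response element or the CArG box, which occurred in 2.69% and 1.28% of genes. A match is a stretch of letters and not a shown binding site.

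Every value is a log ratio of the channels as deposited, read as base 2. No source used here states the base or which channel is the numerator. A positive value therefore stands for more RNA in treated cells if treated cells are the numerator and for less if control cells are, and no value is called a rise or a fall. Each time had 1 array with no dye swap, so no p-value exists and time, array, handling, dye and inhibitor cannot be told apart. Treated cells were in Cy3 on both arrays, so a dye effect of a probe could recur at 3 h and 6 h. A like value at both times therefore does not set the inhibitor apart from the dye. In the difference of the times, a dye effect common to both arrays would cancel. The labels give the untreated cells a time of 0 h, whereas the sample titles name a control together with 3 h or 6 h. Neither says if a single control RNA served both arrays. Values at both times are therefore set side by side and cannot be taken as independent of each other. The only error at hand is the SD between probes of one gene, over 572 genes with several probes. It was 0.31 at 3 h, 0.33 at 6 h and 0.30 for the difference of the times, and it leaves out the spread between cultures. The SD over all named genes was little different, at 0.36 at 3 h, 0.36 at 6 h and 0.29 for the difference. Probes of one gene thus differed about as much as genes did, and the probe SD is only a rough scale. Of the members, 53 had 1 probe and 5 had 2. A ratio in a bulk culture cannot tell fewer cells with a transcript from less of it per cell. The ratios hold no expression level, so the labelled cell type could not be checked against markers.

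The splicing factor genes lay slightly on the positive side at 3 h and near the middle of all genes at 6 h. Their median log2 ratio was 0.18 at 3 h, with quartiles of −0.07 and 0.36, against 0.02 for 10810 named genes. Over the 26 members whose symbol in the annotation was already current, which leaves out all SRSF and HNRNP genes, the 3 h median was 0.09. At 6 h the median was 0.065, with quartiles of −0.14 and 0.23, against 0.02 for 10716 genes. At 3 h 39 of 58 members were positive (67.2%, against 51.3% of all genes) and 17 negative (29.3%, against 47.5%). At 6 h 35 were positive (60.3%, against 51.5%) and 22 negative (37.9%, against 47.3%). No member was past 2-fold on either array, where 0.657% of genes at 3 h were past it on the positive and 0.953% on the negative side, and 0.7% and 0.728% at 6 h. At 1.5-fold, a log2 ratio of 0.58, 5 members were positive at 3 h (8.62%, against 4.88% of all genes) and 1 was negative (1.72%, against 4.49%). At 6 h 2 were positive (3.45%, against 5.63%) and 0 negative (against 4.24%). These counts rest on few genes, and no test of them against the background was made. Counts in the groups and lists below stand beside the same shares of all genes. These are 51.3% positive at 3 h, 51.5% positive at 6 h and 51.2% negative in the difference of the times.

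**Figure D1:**
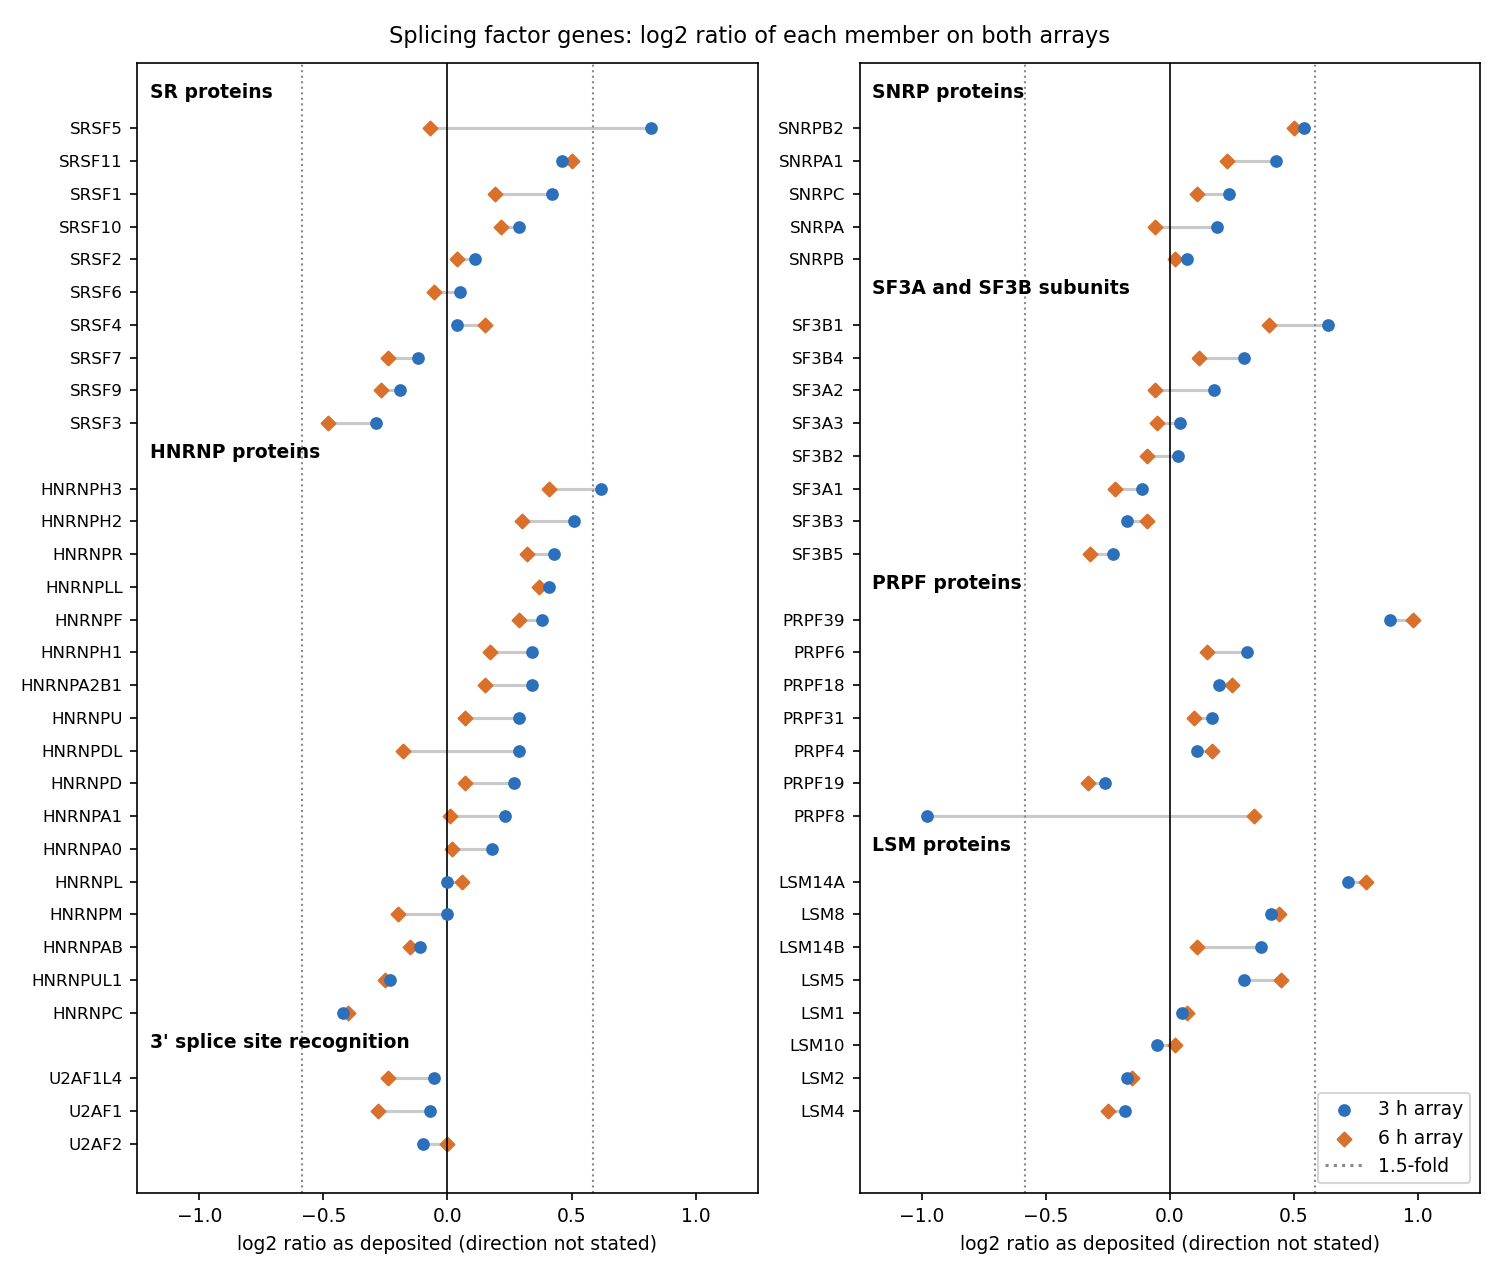
Log2 ratio of each of the 58 genes on the 3 h array (circles) and the 6 h array (diamonds), grouped by role, with a grey line joining both values of a gene and dotted lines at 1.5-fold. Most pairs lie close together, whereas PRPF8 (−0.98 and 0.34) and SRSF5 (0.82 and −0.07) have the longest lines.

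Most splicing factor genes had the lower ratio at 6 h. Subtracting the 3 h from the 6 h ratio gave a negative value for 42 of 58 members (72.4%), against 51.2% of 10469 genes, and positive for 16 (27.6%, against 46.9%). Its median was −0.09, with quartiles of −0.20 and 0.02, against −0.01 for all genes. Besides PRPF8, SRSF5 and HNRNPDL, every member differed between the arrays by less than the probe SD of 0.30. A single member was past 1.5-fold on the positive side (1.72%, against 3.05% of genes) and 1 on the negative side (1.72%, against 2.7%). These are PRPF8 and SRSF5, and without both the median stayed at −0.09, with 41 of 56 members negative.

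**Figure D2:**
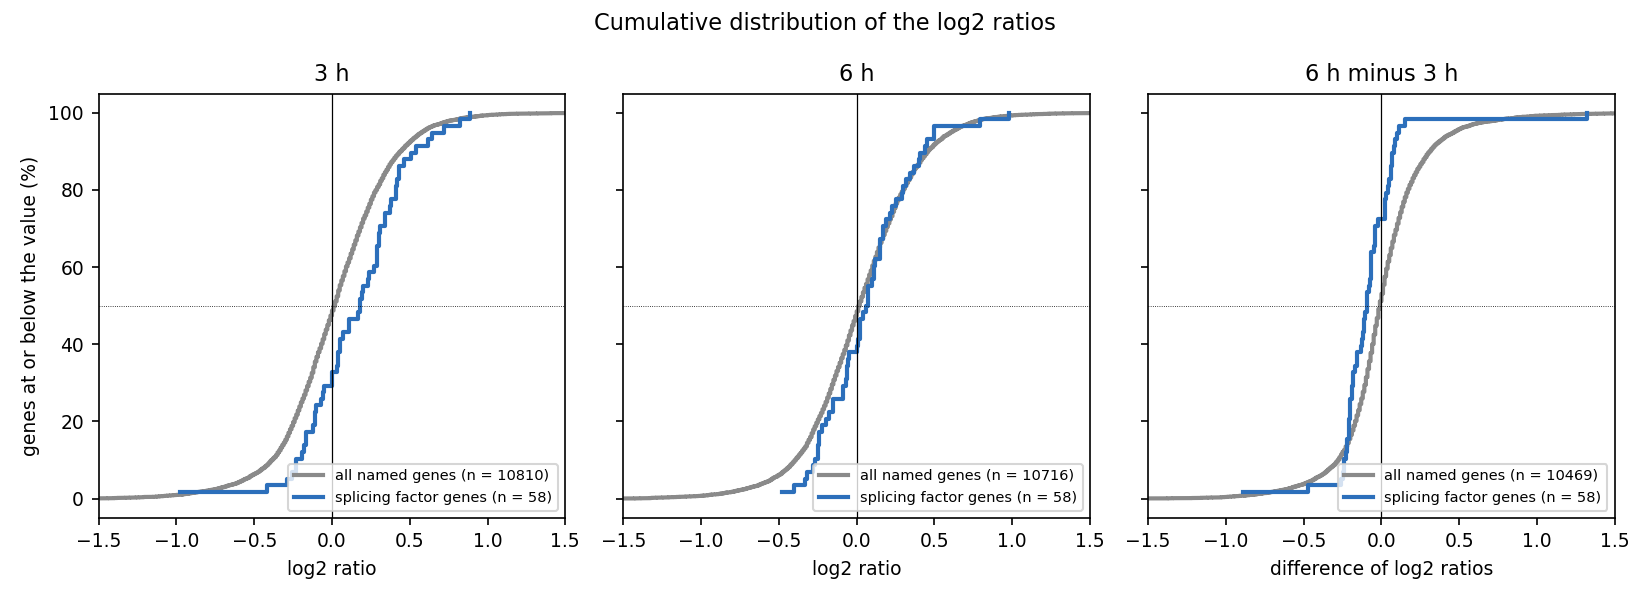
Share of genes (%) at or below each log2 ratio at 3 h, at 6 h and for the difference of the times, for the 58 splicing factor genes (blue) and all named genes (grey). The blue curve is shifted to the right at 3 h (median 0.18 against 0.02), nearly overlies the grey one at 6 h, and is shifted to the left in the difference (median −0.09 against −0.01).

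Of the SR proteins, which carry arginine-serine repeats and bind exonic enhancers, SRSF5 was the highest at 3 h and lay below 0 at 6 h. SRSF5 (probe H200007704) had a log2 ratio of 0.82 at 3 h and −0.07 at 6 h. This was a 1.77-fold difference at 3 h, rank 162 from the top of 10810 genes, and 1.05-fold at 6 h. Its difference of −0.89 was rank 78 from the bottom of 10469 genes and about 3 times the probe SD of 0.30. SRSF11 had 0.46 and 0.50, and SRSF1, an essential SR protein, had 0.42 and 0.19. SRSF10, which turns into a splicing repressor when it loses phosphate, had 0.29 at 3 h and 0.215 at 6 h as the mean of 2 probes. SRSF2, a nuclear speckle marker, had 0.11 and 0.04, SRSF4 had 0.04 and 0.15, and SRSF6 had 0.05 and −0.055. SRSF3, SRSF9 and SRSF7 were negative at both times. SRSF3, the smallest, had −0.29 and −0.48, SRSF9 had −0.19 and −0.27, and SRSF7 had −0.12 and −0.24. The median of the 10 SRSF genes was 0.08 at 3 h, with 7 positive, and −0.0075 at 6 h, with 5 positive. In 8 of the 10 the 6 h value was the lower one, with SRSF4 and SRSF11 as exceptions.

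HNRNP proteins coat nascent pre-mRNA, and several of them repress nearby splice sites. The 17 HNRNP genes had the highest median of the larger groups at 3 h, 0.29, with 12 positive, 3 negative and 2 at 0. At 6 h the median was 0.07 with 12 positive and 5 negative. The difference was negative in 15 of 17, with a median of −0.17 and a range of −0.47 to 0.06. HNRNPL, a CA-repeat binder, at 0.00 and 0.06, and HNRNPC were the 2 on the other side.

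The 4 genes of the closely related G-run binders HNRNPH and HNRNPF were all positive. HNRNPH3 (probe H300018181) read 0.62 at 3 h and 0.41 at 6 h on the log2 scale and was the single HNRNP gene past 1.5-fold at 3 h (1.54-fold). HNRNPH2 had 0.51 and 0.30, HNRNPF had 0.38 and 0.29, and HNRNPH1 had 0.34 and 0.17 as the mean of 2 probes. HNRNPH1 and HNRNPH2 are near-identical paralogues whose probes may read both. HNRNPR had 0.43 and 0.32, and HNRNPLL, a regulator of CD45 splicing in T cells, had 0.41 and 0.37.

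HNRNP A/B proteins antagonise SR proteins at many exons. HNRNPA2B1 had 0.34 at 3 h and 0.15 at 6 h, HNRNPA1 had 0.23 and 0.01, and HNRNPA0 had 0.18 and 0.02. HNRNPA1 has many processed pseudogenes, and what its probe also reads was not tested. HNRNPD, which binds AU-rich elements, had 0.27 and 0.07, and HNRNPU, a scaffold attachment factor, had 0.29 and 0.07. HNRNPDL, the paralogue of HNRNPD, had 0.29 and −0.18. Its difference of −0.47 was the second lowest of the members after SRSF5. HNRNPM had 0.00 and −0.20.

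HNRNPC, which binds uridine tracts and keeps U2AF2 off cryptic exons, was the lowest HNRNP gene. It had −0.42 at 3 h and −0.40 at 6 h (probe H300018648), ranks 57 of 58 among the members at both times. HNRNPUL1 had −0.23 and −0.25, and HNRNPAB, of the A/B type, had −0.11 and −0.15. The values of these 3 genes differed by 0.04 or less between the arrays.

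The U2AF heterodimer binds the end of the intron, where U2AF2 reads the polypyrimidine tract and U2AF1 the AG. U2AF1 had −0.07 at 3 h and −0.28 at 6 h, U2AF2 had −0.10 and 0.00, and U2AF1L4, a paralogue of U2AF1, had −0.055 and −0.24 as the mean of 2 probes. None of the 3 was positive on either array, and all values were smaller than the probe SD.

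Among the proteins of the U1 and U2 particles, all 5 SNRP genes were positive at 3 h, with a median of 0.24, and 4 of 5 at 6 h, with a median of 0.11. The U2 proteins lay highest. SNRPB2 had 0.54 and 0.50, and SNRPA1 had 0.43 and 0.23. Of the U1 proteins, SNRPC had 0.24 and 0.11, and SNRPA had 0.19 and −0.06. SNRPB, a subunit of the Sm ring shared by most spliceosomal particles, had 0.07 and 0.02. In all 5 the difference was negative, from −0.25 to −0.04.

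SF3A and SF3B are the protein complexes that hold the U2 particle on the branch point. SF3B1, which clamps the branch-point helix and is the target of splicing inhibitors such as pladienolide B, had 0.64 at 3 h and 0.40 at 6 h (probe H300019867), a 1.56-fold difference at 3 h. The other 7 subunits lay between −0.23 and 0.30 at 3 h and between −0.32 and 0.12 at 6 h. Of them SF3B4 had 0.30 and 0.12, SF3A2 had 0.18 and −0.06, SF3A3 had 0.04 and −0.05, and SF3B2 had 0.035 and −0.09. SF3A1 had −0.11 and −0.22, SF3B3 had −0.17 and −0.09, and SF3B5, a very small subunit, had −0.23 and −0.32. Thus the subunits of a single complex had values on both sides of 0, and the difference was negative in 7 of 8.

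The PRPF genes held both the highest and the lowest value of all members at 3 h. PRPF39, which associates with the U1 particle, had log2 ratios of 0.89 at 3 h and 0.98 at 6 h (probe H200017064), 1.85-fold and 1.97-fold differences. It was the highest member at both times, at ranks 119 of 10810 and 79 of 10716 from the top. PRPF8, the scaffold of the catalytic core in U5, had −0.98 at 3 h and 0.34 at 6 h (probe H300021268), a 1.97-fold and a 1.27-fold difference of opposite sign. At 3 h it was rank 105 from the bottom, and its difference of 1.32 (2.50-fold) was rank 31 from the top of 10469 genes. At 2-fold it was the only member past the size in the difference (1.72% of members, against 0.774% of genes on the positive side, with 0 members against 0.43% on the negative side). With 1 probe on 1 array per time, its value at 3 h has no second reading.

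The other 3 PRPF genes of the U4/U6.U5 particle were positive at both times, between 0.10 and 0.31. PRPF6 had 0.31 and 0.15, PRPF31 had 0.17 and 0.10, and PRPF4 had 0.11 and 0.17. PRPF18, which acts in the second step of splicing, had 0.20 and 0.25. PRPF19, the ubiquitin ligase of the complex that activates the spliceosome, had −0.26 and −0.33. The 7 PRPF genes had a median of 0.17 at both times, with 5 and 6 positive.

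The 8 LSM genes ranged from −0.18 to 0.72 at 3 h and from −0.25 to 0.79 at 6 h, with medians of 0.175 and 0.09. LSM14A, a P-body protein that represses translation, had log2 ratios of 0.72 at 3 h and 0.79 at 6 h (probe H300019264), 1.65-fold and 1.73-fold differences, the second highest member at 6 h. Its paralogue LSM14B had 0.37 and 0.11. Of the ring on U6 RNA, LSM8, the subunit that keeps it nuclear, had 0.41 and 0.44 and LSM5 had 0.30 and 0.45, whereas LSM2 had −0.17 and −0.15 and LSM4 had −0.18 and −0.25. LSM1, which replaces LSM8 in the cytoplasmic decay ring, had 0.05 and 0.07. LSM10, a subunit of the U7 particle that processes histone mRNA, had −0.05 and 0.02. The LSM and PRPF groups were the ones whose median difference was positive, at 0.025 over 8 genes and 0.05 over 7, and whether they differ from the other groups was not tested.

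**Figure D3:**
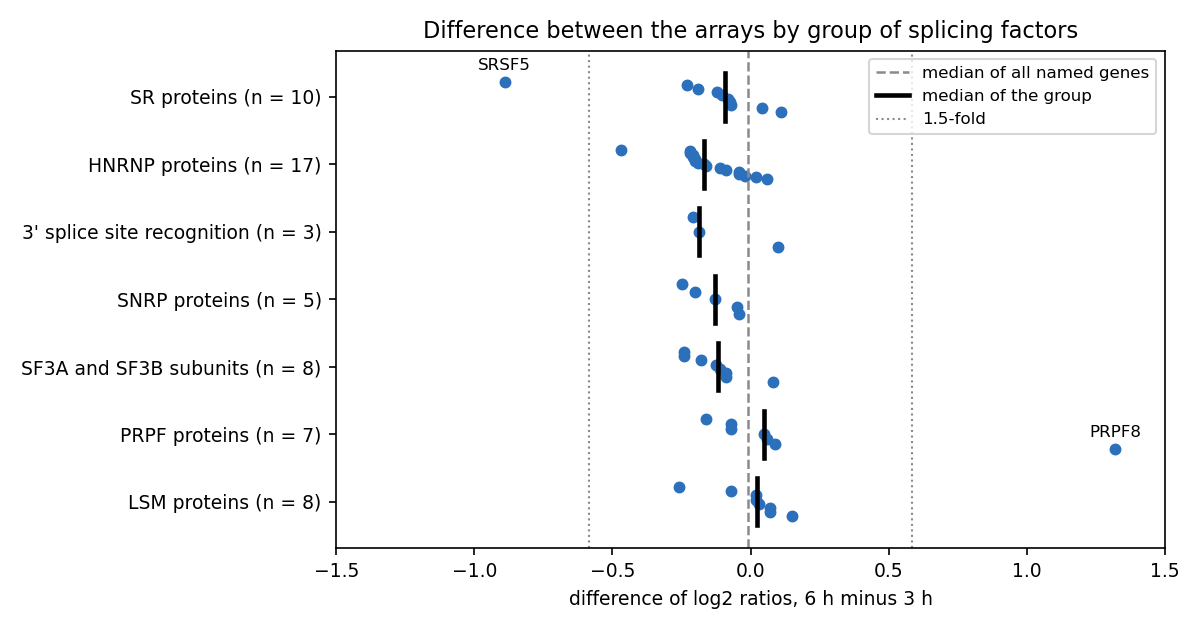
Difference of the log2 ratios, 6 h minus 3 h, for each gene (points) by group, with the group median (black bar), the median of all named genes (dashed line) and 1.5-fold (dotted lines). SRSF5 at −0.89 and PRPF8 at 1.32 lie outside the dotted lines, and the other 56 genes lie between −0.47 and 0.15.

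For 5 members the array gave 2 readings. The probes of SRSF10 read 0.10 and 0.48 at 3 h and 0.11 and 0.32 at 6 h. Those of SRSF6 read 0.22 and −0.12 at 3 h and 0.16 and −0.27 at 6 h, so that they had opposite signs on both arrays. The U2AF1L4 probes read −0.02 and −0.09 at 3 h, then −0.06 and −0.42 at 6 h. The HNRNPH1 probes read 0.27 and 0.41 at 3 h, and 0.19 and 0.15 at 6 h. SF3B2 had 0.08 and −0.01 at 3 h, and both of its probes read −0.09 at 6 h. Gaps within a gene thus ran from 0.07 to 0.38 at 3 h and from 0 to 0.43 at 6 h.

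Genes of splicing and of linked steps (mRNA export, snRNP assembly and RNA decay) outside the stems were looked at through 7 lists. Of 233 genes, 158 were measured at 3 h and 159 at 6 h. At 3 h 13 of them were past 1.5-fold on the positive side (8.23%, against 4.88% of all genes) and 1 on the negative side (0.633%, against 4.49%). At 6 h 14 were positive (8.81%, against 5.63%) and 4 negative (2.52%, against 4.24%). Their medians were 0.14 and 0.17, and that of the difference was −0.02, against −0.09 for the members.

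Of the lists, the PRP19 complex and the factors of the catalytic steps had the highest medians. They had 0.35 at 3 h and 0.31 at 6 h, with 22 and 23 of 24 genes positive (91.7% and 95.8%, against 51.3% and 51.5% of all genes). PRPF19 itself is a member by its stem and not in this list, and it was negative at both times (−0.26 and −0.33). CWC27, a spliceosomal cyclophilin, had 0.74 and 0.80 and was the highest. TFIP11, which takes part in taking the spliceosome apart, was the lowest at 3 h with −0.29 and had 0.02 at 6 h. PPIE, also a cyclophilin, had 0.19 and −0.04, the lowest value at 6 h.

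Proteins of the U1, U2, U5 and minor particles that carry other symbols had medians of 0.25 and 0.28. Of these 21 genes, 18 and 16 were positive (85.7% and 76.2%, against 51.3% and 51.5% of all genes). SNRNP48, of the minor spliceosome, was the highest with 0.58 and 0.66. SNRNP200, the helicase that unwinds U4 from U6 and binds PRPF8 directly, had −0.40 at 3 h and 0.65 at 6 h. It was the lowest of its list at 3 h, and its difference of 1.05 had the same sign as the 1.32 of PRPF8. The other PRPF members of the U4/U6.U5 particle had smaller differences, with −0.16 for PRPF6, −0.07 for PRPF31 and 0.06 for PRPF4. The median difference of the list that holds SNRNP200 was 0.07 over 21 genes. A turn from below 0 to above 0 was not limited to this pair. SCAF8, of the list of SR-related proteins, had −0.38 and 0.44, a difference of 0.82. SNRNP200 and PRPF8 each rest on 1 probe, and a link between their values was not tested. CD2BP2, a U5 assembly factor, had 0.00 and −0.26.

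The remaining lists lay closer to all genes. Exon junction and export factors had medians of 0.11 and 0.13, with 13 and 12 of 18 positive (72.2% and 66.7%, against 51.3% and 51.5% of all genes). They ran from PNN at 0.88 and 0.86 down to CASC3 at −0.29 and −0.16. THOC3 was lowest at 6 h, with −0.11 and −0.17. SR-related proteins and kinases other than CLK had medians of 0.02 over 15 genes and 0.075 over 16. In that list SCAF11 had 0.82 and 0.69, SCAF8 had −0.38 and 0.44, and SREK1 had −0.04 and −0.61. Other RNA-binding regulators had medians of 0.01 and −0.005 over 46 genes. PTBP2, a paralogue of PTBP1, was the highest of them with 0.80 and 1.13, and ELAVL3 the lowest with −1.22 and −0.88. Genes of snRNP assembly had medians of 0.09 and 0.17 over 17 genes, from DDX20, a helicase of the SMN complex, at 0.65 and 0.55 to SNUPN, the import adaptor, at −0.24 and −0.32. RNA decay partners of the LSM proteins had medians of 0.08 and 0.175 over 18 genes. TUT7, a terminal uridylyltransferase, had 0.76 and 0.98. PABPC1 was lowest at 3 h with −0.12 and had −0.11 at 6 h, and the decapping helicase gene DDX6 had −0.02 and −0.28.

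**Figure D4:**
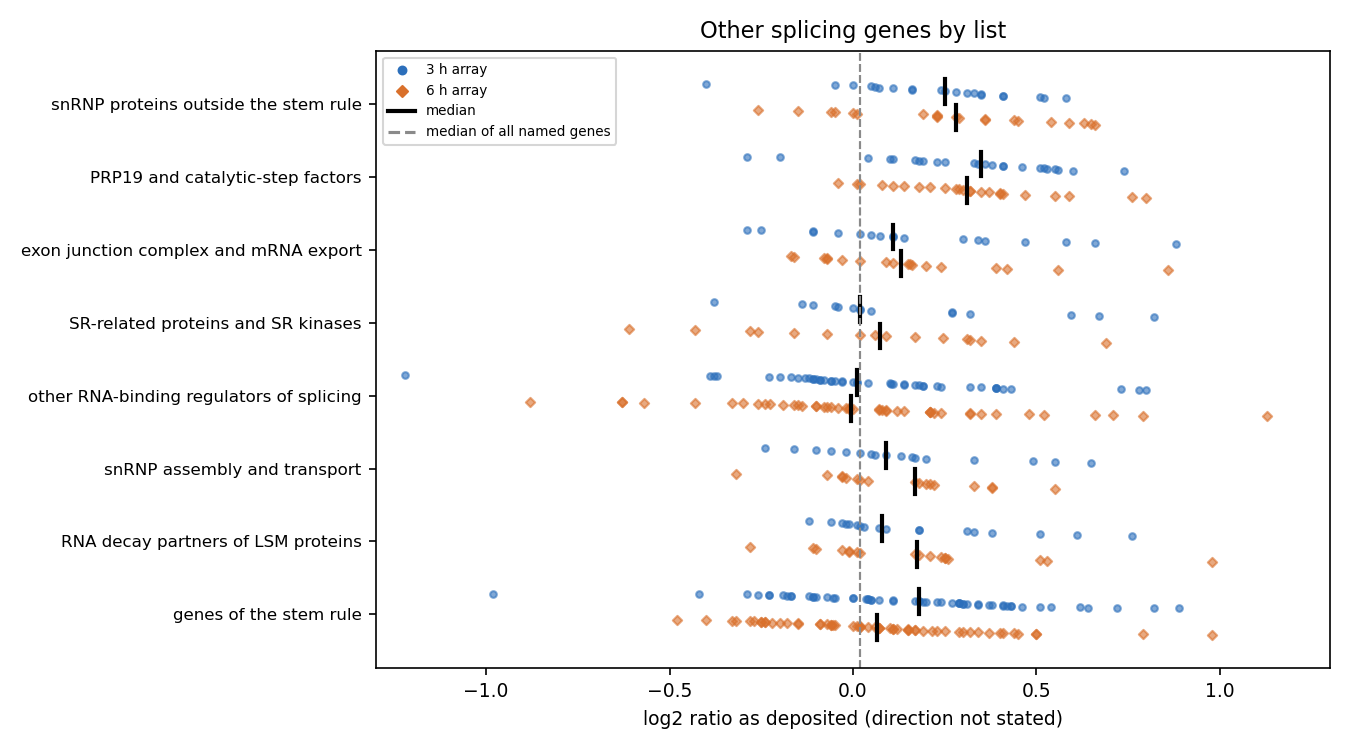
Log2 ratios, by list, of other genes of splicing and linked RNA steps, and of the 58 genes of the stem rule, at 3 h (circles) and 6 h (diamonds). Each median is a black bar, and the median of all named genes (0.02 on each array) is a dashed line. The PRP19 and catalytic-step list has the highest medians, 0.35 and 0.31, and the other RNA-binding regulators have the widest range, from −1.22 to 1.13.

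Of features that the rule did not use, the ETS core was set beside the ratios. The median of the 19 members with it was 0.27 at 3 h and 0.12 at 6 h, and the 33 without it had 0.05 and 0.02. Their ranges overlapped, from −0.11 to 0.82 and from −0.98 to 0.64 at 3 h. The median difference of the times was −0.09 with the core and −0.11 without it. Across the 58 members the span of the gene in RefSeq had Spearman coefficients of 0.09 with the ratio at 3 h, 0.30 at 6 h and 0.33 with the difference of the times, against 0.11, 0.14 and 0.06 across all genes. The GC content of the promoter, over 52 members, had −0.04, −0.14 and −0.21, against 0.003, 0.009 and 0.01 across all genes with a promoter. Genes of one array share its RNA and its dyes and are not independent, so these coefficients are descriptions.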

How the data were processed

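Two-colour arrays of 293T RNA were used, with untreated cells in Cy5 and treated cells in Cy3, per the labels. The authors' deposited table holds 1 log ratio per probe and array, taken here as log2, for 24267 probes, of which 20503 had a value at 3 h and 20337 at 6 h. For scanner, background correction, normalization and filters the method is not given in the sources used here. Base 2 was assumed because the SD over probes at 3 h would be 2.39-fold in base 10, against 1.30-fold in base 2. The platform annotation names 13395 probes, and symbols were brought up to date through unique RefSeq synonyms for 2446 of them, which included 32 of the 58 members. A gene was the mean of its probes. No test was run, since each time has 1 array. Counts use 1.5-fold, with 2-fold as an alternative. The members, the lists and the comparisons were chosen with earlier results of these data known. All members may be named, and of each list the highest and lowest gene on each array. From the lists, 1 ambiguous symbol was left out. Alternatives were the median of probes, the probe farthest from 0, probes measured on both arrays, symbols current as listed, centring, and dropping paralogue symbols. The planned count of arginine-serine repeats was not run, since protein sequences were not used here. Scripts ran in Python 3.11.15 with pandas 2.3.3 and were tested on simulated data.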

Additional observations from a re-analysis of the deposited data

Results flagged for a closer look

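The members with opposite signs at 3 h and 6 h numbered 9 of 58 (15.5%), against 20.8% of 10469 genes. Each time has 1 array, so none of these differences was tested. The difference, 6 h minus 3 h, was 1.32 for PRPF8, −0.89 for SRSF5 and −0.47 for HNRNPDL. For SNRPA it was −0.25, for SF3A2 −0.24, for SF3B2 −0.125, for SRSF6 −0.105, for SF3A3 −0.09 and for LSM10 0.07. Only PRPF8, SRSF5 and HNRNPDL differed by more than the probe SD of 0.30.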

How the results depend on the processing

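Since 53 of the 58 members have 1 probe, the choice of probe could move the values of 5 members alone, by at most 0.215, and says nothing about the stability of the others. Setting the median of all named genes to 0 moved each array by 0.02. At 2-fold in place of 1.5-fold, the counts past the size fell to 0 positive and 0 negative at 3 h, 0 positive at 6 h and 0 negative in the difference. With the 26 members whose symbol was current as listed, the median at 3 h was 0.09, and 2 members were positive past 1.5-fold at 3 h, 1 at 6 h and 0 negative in the difference. That setting leaves out all 10 SRSF and all 17 HNRNP genes. Without PRPF8 and SRSF5, an alternative chosen after seeing the data, 0 members were negative past 1.5-fold at 3 h and 0 were past it on either side in the difference. No paired analysis was possible because each time has 1 array. Depth could not be assessed, since no spot intensities were used, and the number of arrays limits every value.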

Other observations

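Some genes fit the stems by the older symbol in the annotation and not by the current one, so they are not among the 58 members. PRP4K, listed as PRPF4B, a kinase of the tri-snRNP, had log2 ratios of 0.77 at 3 h and 0.87 at 6 h. ZRSR2, listed as U2AF1L2, which recognises the end of minor introns, had 0.51 and 0.63. SFSWAP, listed as SFRS8, had 0.22 and 0.15, SUGP2 had 0.15 and 0.10, SCAF4 had 0.02 and 0.17, and SNRNP70, the U1 protein that binds the loop of U1 RNA, had 0.11 and 0.00. SCAF11, listed as SFRS2IP, had 0.82 and 0.69. SREK1, listed as SFRS12, had −0.04 and −0.61, the lowest of these 8 genes on each array. They were chosen after their values were seen.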
